A study of Mus musculus with 6 samples.

Results

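Interstitial collagens and the proteins that bind, crosslink and degrade them form the matrix that fibroblasts lay down. Their genes were taken as every non-control array probe named for a collagen chain other than collagen IV, or for Dcn, Lum, Postn, Bgn, a fibulin, a fibrillin, a lysyl oxidase, a matrix metalloproteinase (MMP) or a tissue inhibitor of metalloproteinases (TIMP). This gave 73 genes on 121 probes, of 28786 gene names on the array. Of them, 61 were measured well enough to be tested, among 20688 genes tested in all.

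The study profiled total RNA of 2 kinds of mouse pluripotent stem cell, each as 3 cultures hybridised with Cy3 to 1-colour Agilent arrays. The embryonic stem (ES) cell cultures, labelled mES, were the lines ESF122 (replicate 1), ESF175/1 (replicate 2) and ESF58/2 (replicate 3), the last of which another label gives as ESF58/1, and they grew with the cytokine LIF. The epiblast stem cell cultures, labelled EpiSC, were EpiSC-5 (replicate 1) and EpiSC-7 at passage 20 (replicate 2) and passage 25 (replicate 3), grown with the growth factor FGF2. All 6 cultures grew in DMEM with knockout serum replacement on irradiated mouse embryonic fibroblasts (MEFs), which carry fibroblast RNA of their own, and the labels do not say whether these feeder cells were removed before extraction. The EpiSC group therefore holds 2 lines, the labels number no replicates, so the numbers used here only name arrays and pair nothing, and p-values measure only the spread between these cultures.

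Fibrillar collagens I, II, III, V and XI are secreted as procollagen trimers, assemble into fibres and are crosslinked by lysyl oxidases. Small leucine-rich proteoglycans such as decorin and lumican sit on the fibres, fibrillins and fibulins build microfibrils and elastic fibres, and MMPs cut these proteins under the control of TIMPs. Embryonic fibroblasts make large amounts of most of them, while the early embryo is better known for the basement membrane collagens.

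Most fibrillar collagen, collagen VI, proteoglycan and fibulin genes varied widely between cultures of the same cell type. By their brightest probes none of these members passed the test between mES and EpiSC. Other probes of Col2a1 and Col27a1 did pass, as did the fibulin Fbln7, which the naming rule left out. In all, 13 of the 61 tested genes (21.3%) passed the test between cell types (limma, Benjamini-Hochberg adjusted p under 0.05 over all genes), against 26.3% of all genes tested. Of these, 10 were higher in EpiSC, where 11.8% of all genes were, and 3 were lower, where 14.5% of all genes were. They were collagens VII, VIII (alpha 2), IX (alpha 3), XVII, XVIII and XXIII, Fbn2, several MMPs and Timp4, and they included none of the collagen I, III, V and VI chains, decorin or lumican. The median log2 difference over the 61 genes was 0.10, beside -0.11 over all genes. The ranges of mES and EpiSC did not overlap for 18 of the 61 genes (29.5%), against 48.5% of all genes.

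**Figure D1:**
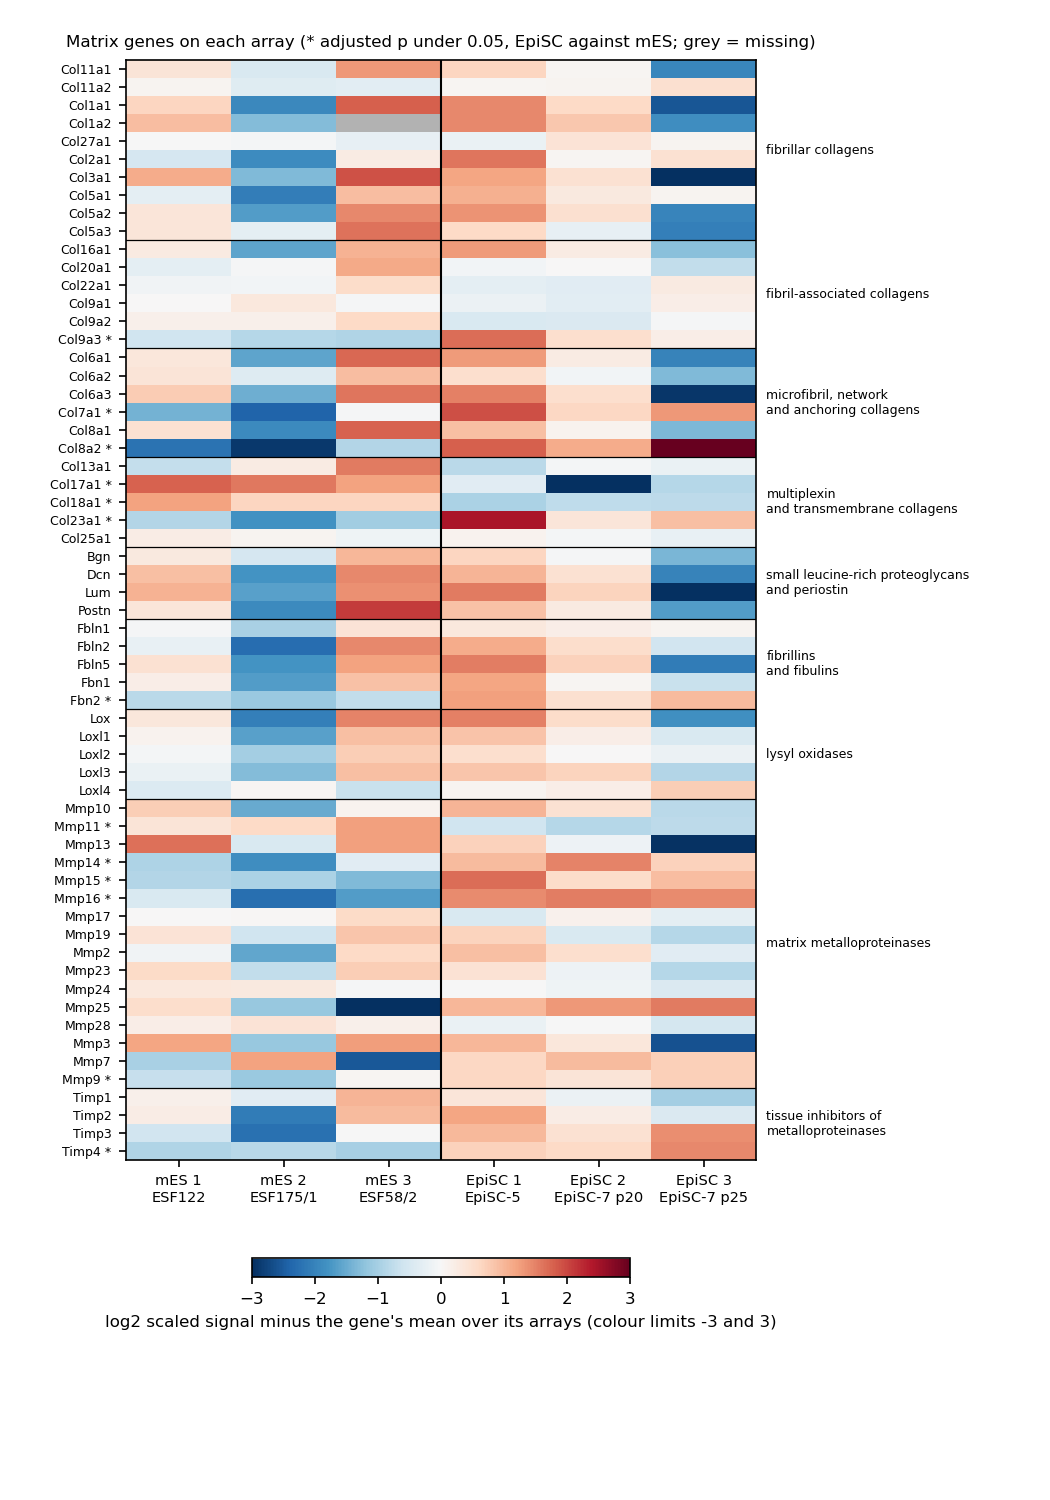
Each row is 1 of the 61 tested matrix genes, ordered by role, and each column 1 array. Colour gives the log2 scaled signal minus the gene's mean over its arrays, an asterisk marks an adjusted p under 0.05 between cell types, and grey a missing value. Of the 61 genes, 43 were lowest among the mES arrays on replicate 2 and 39 lowest among the EpiSC arrays on replicate 3.

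The spread within a cell type was wide for these genes. The standard deviation (SD) between arrays of 1 cell type, pooled over both, had a median of 0.90 log2 units over the 61 genes and 0.30 over all genes. It was at least 1 for 28 of the 61 (45.9%), against 4.65% of all genes, and 2 of those 28 passed the test between cell types. The genes that passed had a median SD of 0.57 and those that did not one of 1.04. The test weighs a difference against this spread, so a wide SD itself makes passing less likely, and these values are no separate result. Such a spread was not particular to the matrix genes: the median SD was 1.01 over other embryonic fibroblast genes and 0.94 over trophoblast genes.

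The same arrays were low for most of them. All 61 genes were measured on each array apart from 1 outlier spot of Col1a2. The median deviation from a gene's own mean over the 6 arrays was 0.19, -1.12 and 0.79 on mES replicates 1 to 3, and 0.87, 0.25 and -0.53 on EpiSC replicates 1 to 3. Thus mES replicate 2 and EpiSC-7 at passage 25 lay lowest, and mES replicate 3 and EpiSC-5 highest. These 2 low arrays were already known from earlier results of these data, so the counts that follow describe them and test nothing. On both together 34 genes (55.7%) were the lowest of their cell type, as were 11.2% of all genes. At the other end, 42 genes (68.9%) were highest on mES replicate 3 and 42 highest on EpiSC-5, against 29.1% and 29.3% of all genes. The scaled signals of all members, summed in units of each array's 75th percentile, came to 172.9, 66.1 and 221.4 in mES and to 241.1, 165.2 and 83.0 in EpiSC, where the sum of mES replicate 3 lacks Col1a2. In such bulk samples fewer cells of a type and less RNA per cell cannot be told apart.

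Values below are log2 signals relative to the array's 75th percentile, in the order of replicates 1, 2 and 3. They compare arrays for 1 gene and not genes with each other, since probes differ in brightness.

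Collagen I makes the main fibres of connective tissue. Col1a1, its alpha 1 chain, read 4.46, 1.88 and 5.6 in mES and 5.25, 4.41 and 1.23 in EpiSC. Its low array lay 13.2-fold below the highest in mES and 16.3-fold below in EpiSC, and the cell types overlapped throughout, with a difference of -0.35 ± 1.30 (standard error; limma adjusted p = 0.859). Col1a2, the alpha 2 chain, read 4.88 and 2.64 in mES, where replicate 3 was an outlier spot and was left out of the fit, and 5.38, 4.75 and 2.08 in EpiSC. Its groups overlapped as well (0.31 ± 1.16, limma adjusted p = 0.861). All 3 tested Col1a1 probes gave the same 2 low arrays.

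Collagen III, which joins collagen I in distensible tissues, had the second widest range of all members. Col3a1 read 3.48, 1.04 and 4.27 in mES and 3.56, 2.83 and -1.0 in EpiSC. Passage 25 was the lowest of the 6 arrays, and the difference between cell types was -1.14 ± 1.36 (limma adjusted p = 0.555). Collagen V, which nucleates collagen I fibres, gave like patterns for its chains Col5a2 and Col5a3. Col5a2 read 0.08, -1.97 and 1.16 in mES and 1.07, 0.20 and -2.26 in EpiSC. Col5a3 read -1.04, -1.69 and 0.22 in mES and -0.81, -1.64 and -3.45 in EpiSC. In Col5a1 the low value was on mES replicate 2 (-0.41, beside 1.38 and 2.60), while the EpiSC arrays read 2.73, 1.96 and 1.75, so passage 25 was low by little.

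Of the cartilage collagens, Col11a1 had its lowest values on the same arrays and Col2a1 did not. Col11a1, a chain of the minor fibrillar collagen XI, read -1.62, -2.45 and -0.69 in mES and -1.36, -1.94 and -3.95 in EpiSC. Col2a1, the collagen of cartilage, read 1.04, -0.34 and 1.78 in mES and 3.14, 1.6 and 2.0 in EpiSC, without low values at passage 25. Its difference of 1.42 ± 0.63 did not pass (limma adjusted p = 0.138), whereas a second Col2a1 probe did when every probe was tested by itself (2.22 ± 0.39, limma adjusted p = 0.010). By their brightest probes, none of the 10 tested fibrillar collagens passed in either direction, and 7 were lowest on both low arrays. Col27a1 did not pass (0.21 ± 0.21, limma adjusted p = 0.469), whereas another of its probes did by itself (1.63 ± 0.21, limma adjusted p = 0.00344). Its remaining tested probe did not. With a gene's probes averaged, Col2a1 and Col27a1 both passed.

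The promoters of 4 genes are shown for the 2 patterns of values. Col1a2 and Col3a1 followed the low arrays, while Col8a2 and Mmp14 were higher in every EpiSC culture. The patterns do not exclude each other: Mmp14 was also lowest in each cell type on the low arrays, and Col8a2 was lowest in mES on the low array there. Each sequence runs from 250 bases before to 50 after the gene's start, 5′ to 3′ on the plus strand of GRCm38.p6, from RefSeq. Capitals mark, on either strand, the CCAAT box (CCAAT), the core of the GC box (GGGCGG), the TATA box (TATAAA) and a site like that of AP-1 (TGANTCA), and neighbouring or overlapping matches run together.
Col1a2, chr6:4505368-4505667: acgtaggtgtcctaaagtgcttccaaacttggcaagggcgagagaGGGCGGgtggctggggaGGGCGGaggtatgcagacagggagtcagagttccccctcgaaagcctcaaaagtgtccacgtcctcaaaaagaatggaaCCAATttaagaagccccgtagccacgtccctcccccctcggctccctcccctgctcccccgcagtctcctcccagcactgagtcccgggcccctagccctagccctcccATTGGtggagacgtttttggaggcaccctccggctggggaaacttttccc
Col3a1, chr1:45311288-45311587: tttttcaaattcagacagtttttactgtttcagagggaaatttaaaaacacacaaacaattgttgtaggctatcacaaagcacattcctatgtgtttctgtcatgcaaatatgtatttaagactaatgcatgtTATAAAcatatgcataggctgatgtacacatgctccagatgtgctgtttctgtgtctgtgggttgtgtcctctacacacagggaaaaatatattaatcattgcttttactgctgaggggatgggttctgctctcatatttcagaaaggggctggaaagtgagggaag
Col8a2, chr4:126286544-126286843: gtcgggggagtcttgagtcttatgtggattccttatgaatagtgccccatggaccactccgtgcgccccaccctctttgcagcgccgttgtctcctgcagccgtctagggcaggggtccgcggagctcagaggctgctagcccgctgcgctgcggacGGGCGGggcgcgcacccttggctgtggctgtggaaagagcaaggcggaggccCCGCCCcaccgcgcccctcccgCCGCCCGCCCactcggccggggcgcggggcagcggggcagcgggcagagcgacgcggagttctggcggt
Mmp14, chr14:54431348-54431647: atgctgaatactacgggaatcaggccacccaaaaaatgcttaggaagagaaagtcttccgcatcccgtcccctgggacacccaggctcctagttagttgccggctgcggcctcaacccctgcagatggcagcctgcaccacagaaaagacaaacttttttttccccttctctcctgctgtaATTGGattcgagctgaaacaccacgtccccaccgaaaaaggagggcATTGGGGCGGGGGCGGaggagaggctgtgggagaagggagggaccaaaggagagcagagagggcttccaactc

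In these windows Col1a2 held 2 matches to CCAAT and 2 to GGGCGG, Col3a1 held 1 to TATAAA, Col8a2 held 4 to GGGCGG, and Mmp14 held 2 to CCAAT and 2 to GGGCGG. The windows of 54 of the 73 genes were in the RefSeq table. GGGCGG stood in 29 of them (53.7%), beside 35.9% of all 27025 promoters. CCAAT stood in 15 (27.8%, beside 37.9%), TATAAA in 13 (24.1%, beside 14.2%) and TGANTCA in 7 (13.0%, beside 7.93%). The members' windows had a median GC content of 59.5%, against 52.7%, and a match is a run of letters, not a binding site.

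Proteoglycans on the collagen fibre followed the fibrillar chains closely. Decorin (Dcn) read 2.97, 0.26 and 3.49 in mES and 3.07, 2.51 and 0.04 in EpiSC. Lumican (Lum), which regulates fibre spacing, read 2.96, 0.31 and 3.29 in mES and 3.49, 2.59 and -1.07 in EpiSC. Each low array lay below all 4 of the others, and the differences between cell types were -0.37 ± 1.08 for Dcn (limma adjusted p = 0.820) and -0.52 ± 1.33 for Lum (limma adjusted p = 0.795). Biglycan (Bgn) moved less, at -0.48, -1.28 and 0.21 in mES and -0.14, -0.81 and -2.14 in EpiSC. Periostin (Postn), a matricellular protein of fibroblasts, read 0.28, -2.0 and 2.00 in mES, a 16.1-fold range, and 0.78, 0.17 and -1.78 in EpiSC. All 4 of this set were lowest on both low arrays and none passed between cell types.

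**Figure D2:**
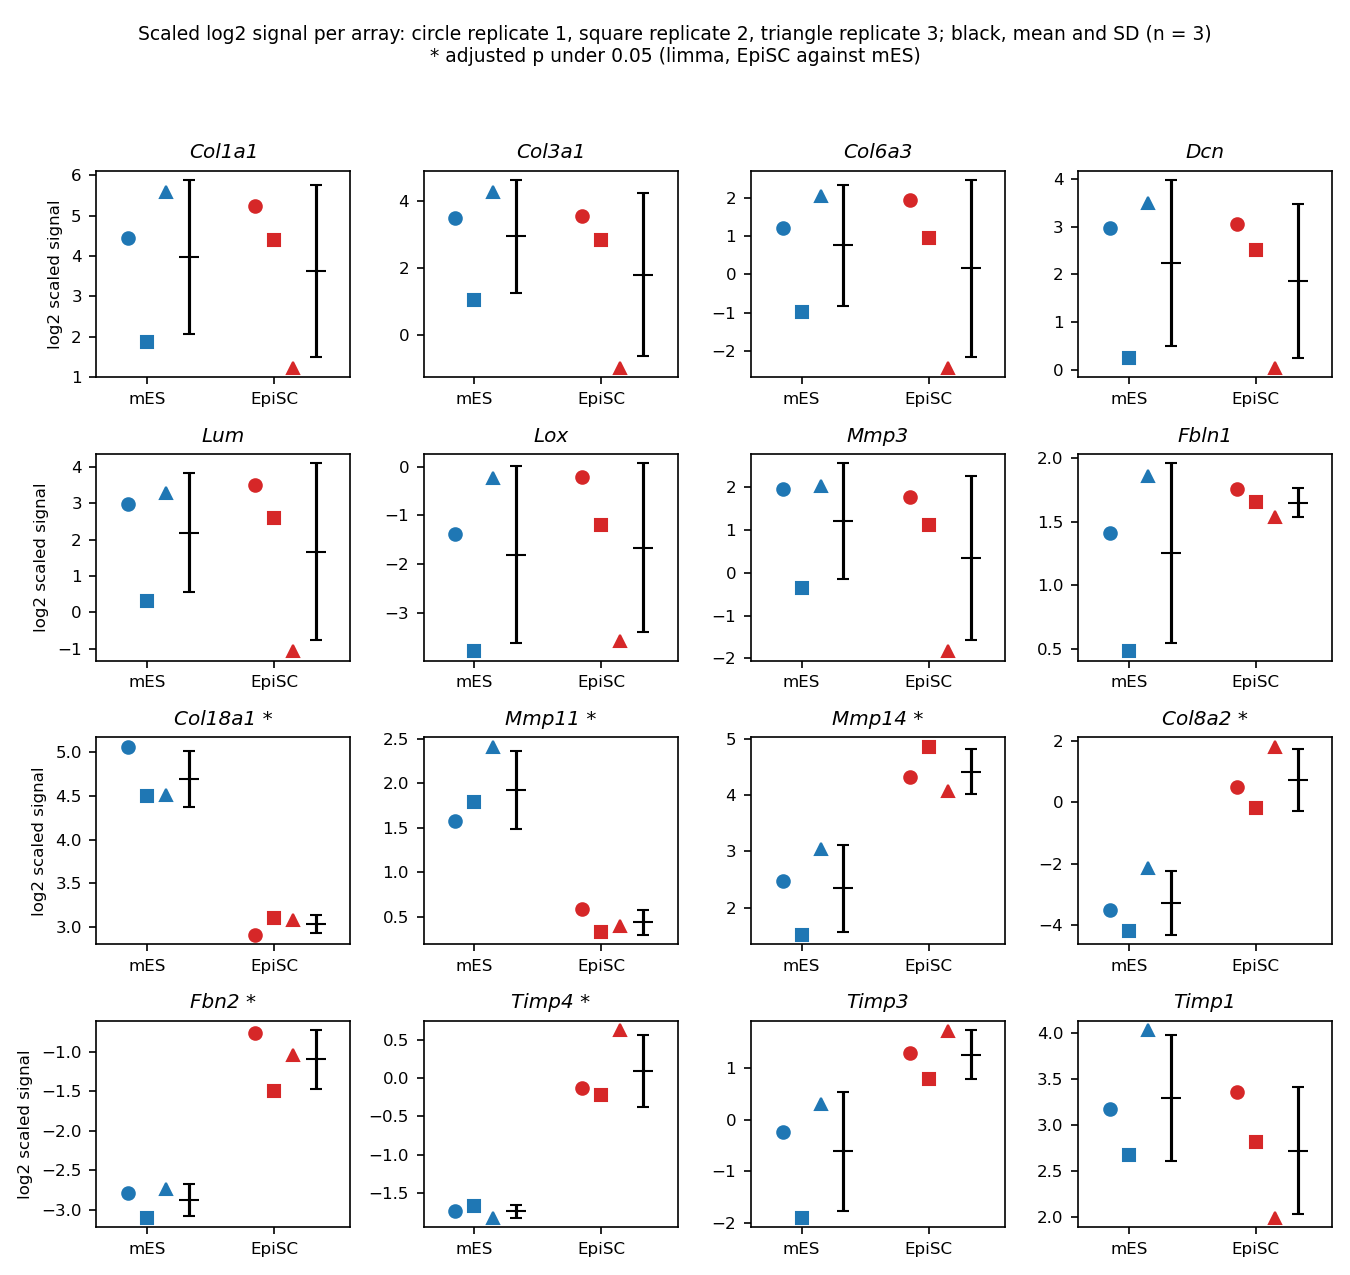
Log2 scaled signal of 16 matrix genes on each array, by cell type, with the mean and SD of 3 arrays in black; each panel has its own axis, and an asterisk marks an adjusted p under 0.05. Col1a1, Col3a1, Col6a3, Dcn, Lum, Lox and Mmp3 have their lowest values on mES replicate 2 (blue square) and EpiSC replicate 3 (red triangle). Col18a1, Mmp11, Mmp14, Col8a2, Fbn2 and Timp4 separate the cell types, and Mmp14 is also lowest in each cell type on those arrays.

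Microfibrillar collagen VI, which links cells to the interstitial matrix, was low on the same arrays. Col6a1 read -0.97, -2.90 and 0.40 in mES and -0.04, -1.06 and -3.33 in EpiSC. Col6a3 read 1.23, -1.0 and 2.07 in mES and 1.96, 0.97 and -2.46 in EpiSC, a 21.4-fold range among the EpiSC arrays. Col6a2 spread less, from -2.11 to -0.79 in mES and from -3.03 to -1.22 in EpiSC, again lowest on both low arrays. The difference between cell types was -0.61 ± 1.28 for Col6a3 (limma adjusted p = 0.747).

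The chains of collagen VIII, a short-chain network collagen, differed between cell types and at passage 25, though both were lowest among mES arrays on replicate 2. Col8a1 read 1.42, -0.95 and 2.73 in mES and 1.87, 1.06 and -0.40 in EpiSC, with overlapping groups (-0.22 ± 1.00, limma adjusted p = 0.883). Col8a2 read -3.51, -4.18 and -2.15 in mES and 0.50, -0.17 and 1.81 in EpiSC. Every EpiSC array lay above every mES array, and Col8a2 rose by 4.0 ± 0.67, or 15.9-fold, the largest difference among the 61 genes (limma adjusted p = 0.00857). Its highest value was at passage 25, where Col8a1 had its lowest EpiSC value.

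Collagen VII, the anchoring fibril collagen that ties epithelia to the dermis, was also higher in EpiSC. Col7a1 read 0.04, -0.95 and 1.43 in mES and 3.39, 2.08 and 2.77 in EpiSC, and rose by 2.58 ± 0.64 (limma adjusted p = 0.0294). It lost the call without mES replicate 1, mES replicate 2, EpiSC replicate 1 or EpiSC replicate 3 (highest limma adjusted p = 0.0899).

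Of the 6 tested fibril-associated collagens, which bind the surface of fibres, only Col9a3 passed. It read -2.43, -2.67 and -2.73 in mES and -0.14, -1.32 and -1.63 in EpiSC, a rise of 1.58 ± 0.39 (limma adjusted p = 0.0298). EpiSC-5 lay above both EpiSC-7 arrays, and the call was lost without any of the 3 mES arrays or without EpiSC replicate 2 (highest limma adjusted p = 0.0768). The partner chain Col9a2 had the opposite sign and did not pass (-0.61 ± 0.21, limma adjusted p = 0.0806). Col12a1, which coats collagen I fibres in fibroblast tissue, was well above background on only 1 mES array (replicate 3) and 2 EpiSC arrays (replicates 1 and 2), and was not tested.

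The collagens lower in EpiSC were collagen XVIII of basement membranes and the transmembrane collagen XVII. Col18a1, whose protein is the source of endostatin, read 5.06, 4.5 and 4.51 in mES and 2.91, 3.1 and 3.08 in EpiSC. It was lower in every EpiSC array, fell by 1.66 on the log2 scale with a standard error of 0.21 (limma adjusted p = 0.00351), and did not follow the low arrays. Col17a1, the hemidesmosome collagen of epithelia, read -2.65, -2.84 and -3.23 in mES and -4.77, -7.80 and -5.28 in EpiSC, where replicate 2 was not well above background. It fell by 3.05 with a standard error of 0.76 (limma adjusted p = 0.0308), and the call was lost without any 1 of the mES arrays or without EpiSC replicate 3 (highest limma adjusted p = 0.0832).

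Col23a1, a transmembrane collagen, was higher in EpiSC. It read -3.78, -4.71 and -3.95 in mES and -0.45, -2.54 and -2.0 in EpiSC, a rise of 2.48 ± 0.56 (limma adjusted p = 0.0223). Of its 3 tested probes a second gave a like difference (2.41 ± 0.49), and the third did not pass (0.48 ± 0.49, limma adjusted p = 0.491). Without mES replicate 2 or EpiSC replicate 3 it missed the threshold (highest limma adjusted p = 0.0639).

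Among the elastic fibre genes, the fibrillins split. Fbn1, the main fibrillin of fibroblasts, read -0.20, -2.09 and 0.47 in mES and 0.78, -0.35 and -1.07 in EpiSC, with overlap (0.39 ± 0.75, limma adjusted p = 0.719). Fbn2, the fibrillin of embryonic tissue, read -2.79, -3.1 and -2.74 in mES and -0.76, -1.49 and -1.04 in EpiSC, and rose by 1.78 ± 0.24, or 3.43-fold (limma adjusted p = 0.00421). All EpiSC values of Fbn2 lay above all mES values.

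Fibulins bind fibrillin and elastin, and each of the 3 tested members was lowest on both low arrays. Fbln5 read -0.81, -3.05 and -0.06 in mES and 0.27, -0.55 and -3.35 in EpiSC. Fbln2 read 1.33, -0.71 and 3.00 in mES and 2.68, 2.09 and 0.98 in EpiSC. Fbln1 varied less in EpiSC, at 1.76, 1.66 and 1.53, than in mES, at 1.42, 0.48 and 1.86. None of the 3 fibulins passed between cell types.

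Lysyl oxidases crosslink collagen and elastin. Lox read -1.38, -3.78 and -0.24 in mES and -0.22, -1.19 and -3.57 in EpiSC, an 11.6-fold range in mES and a 10.2-fold range in EpiSC. Loxl1 read -0.34, -2.08 and 0.45 in mES and 0.40, -0.26 and -0.93 in EpiSC. Loxl2 and Loxl3 were lowest on the same arrays, with differences between cell types of 0.23 ± 0.46 and 0.41 ± 0.68. Loxl4 did not follow them: it read -4.92, -4.46 and -5.19 in mES and -4.44, -4.32 and -3.78 in EpiSC, highest at passage 25. By their brightest probes none of the 5 passed between cell types, and the smallest limma adjusted p was 0.112, for Loxl4. A second Loxl4 probe, not well above background on any mES array, passed when tested by itself (1.44 ± 0.39, limma adjusted p = 0.0393). With its probes averaged Loxl4 passed.

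The matrix metalloproteinases are the largest role. Of 21 on the array 16 were tested, 4 rose and 1 fell, a share near the 26.3% of all genes. Of the membrane-type enzymes, Mmp14, Mmp15 and Mmp16 were higher in EpiSC. Mmp24, another of this type, had the opposite sign and did not pass (-0.39 ± 0.20, limma adjusted p = 0.178). Mmp14, the membrane collagenase that also activates pro-MMP2, read 2.46, 1.52 and 3.04 in mES and 4.33, 4.86 and 4.07 in EpiSC. It rose by 2.08 ± 0.42, or 4.22-fold (limma adjusted p = 0.0154), although its lowest values in each cell type were on the low arrays. Mmp15 read -2.75, -2.81 and -3.18 in mES and -0.20, -1.32 and -0.94 in EpiSC (2.09 ± 0.31, limma adjusted p = 0.00604).

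Mmp16 read -4.5, -6.32 and -5.72 in mES, where 1 of 3 arrays was well above background, and -2.63, -2.50 and -2.64 in EpiSC. Its fitted rise was 2.92 ± 0.45 (limma adjusted p = 0.0063). The size of this rise is uncertain, since it rests in part on the dim values of mES replicates 2 and 3. The other Mmp16 probe was too dim in both cell types to be tested, so the rise rests on a single probe. Mmp17, which is held in the membrane by a lipid anchor, had a difference of -0.40 ± 0.25 (limma adjusted p = 0.259), and Mmp25, anchored in the same way, one of 2.57 ± 0.88 that did not pass (limma adjusted p = 0.0744). The mES values of Mmp25 ran from -5.71 to -1.93.

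The gelatinases differed from each other. Mmp9 read -3.30, -3.73 and -2.55 in mES and -1.99, -2.23 and -1.90 in EpiSC, and rose by 1.15 ± 0.31 (limma adjusted p = 0.0390). It kept the call in 1 of the 6 fits that left out 1 array, being lost without mES replicates 1 or 2 or any EpiSC array (highest limma adjusted p = 0.117). Mmp2, the gelatinase of fibroblasts, read 0.90, -0.56 and 1.59 in mES and 1.90, 1.49 and 0.65 in EpiSC, with overlapping groups (0.70 ± 0.59, limma adjusted p = 0.403).

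Mmp11, or stromelysin 3, was the only MMP that fell. It read 1.57, 1.79 and 2.41 in mES and 0.59, 0.33 and 0.39 in EpiSC, with no overlap, and fell by 1.49 with a standard error of 0.25 (limma adjusted p = 0.00884). Mmp3, or stromelysin 1, instead followed the low arrays, at 1.96, -0.35 and 2.02 in mES and 1.77, 1.12 and -1.84 in EpiSC. Mmp7, or matrilysin, went against them in mES, at -5.33, -3.14 and -6.90, and only replicate 2 there was well above background.

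TIMPs inhibit these enzymes, and the 4 of them gave 3 patterns. Timp1, a secreted inhibitor, read 3.17, 2.67 and 4.03 in mES and 3.36, 2.82 and 1.98 in EpiSC, and Timp2 read 2.3, -0.02 and 3.02 in mES and 3.27, 2.3 and 1.64 in EpiSC. Both were lowest on the low arrays and did not pass. Timp3, which stays bound to the matrix, was low on mES replicate 2 and highest among EpiSC arrays at passage 25 (-0.23, -1.91 and 0.31 against 1.29, 0.79 and 1.74), and missed the threshold (1.88 ± 0.59, limma adjusted p = 0.0576). Timp4 read -1.73, -1.67 and -1.83 in mES and -0.12, -0.22 and 0.63 in EpiSC, and rose by 1.84 ± 0.26, or 3.57-fold (limma adjusted p = 0.00486).

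**Figure D3:**
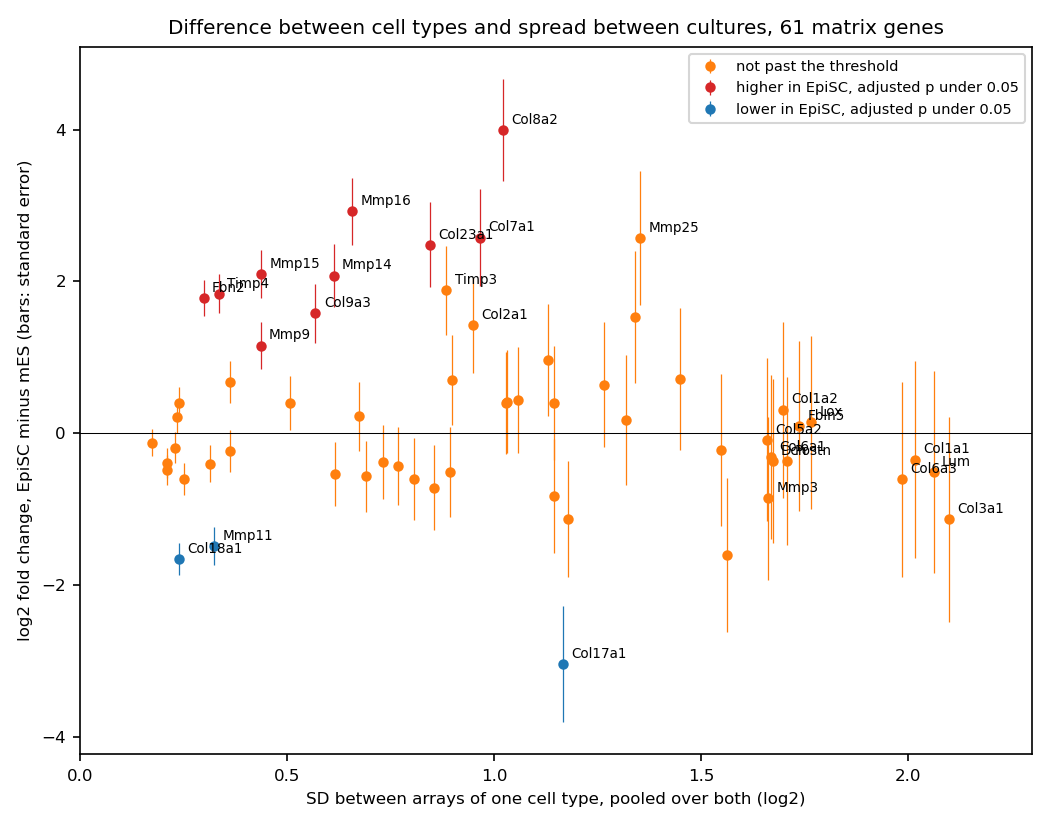
For the 61 tested matrix genes the vertical axis gives the log2 fold change, EpiSC minus mES, with its standard error, and the horizontal axis the SD between arrays of 1 cell type. Col1a1, Col3a1, Col6a3 and Lum lie at the right near or below 0, with SDs around 2, whereas Col18a1, Fbn2, Mmp11 and Timp4 lie at the left, with SDs under 0.5, and passed the test.

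The 12 genes that were not tested included 6 with no probe well above background on any array: Col10a1, Col19a1, Col28a1, Mmp8, Mmp12 and Mmp20. The other 6 were Col12a1, Col14a1, Col15a1, Col24a1, Mmp1a and Mmp21, each above background on some arrays but not on all 3 of either cell type. Col14a1 and Col24a1, by their brightest probes, were above background on every array except the 2 low ones.

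The 2 passages of EpiSC-7 allow a comparison within 1 line, with 1 array each and therefore no test. Passage and culture cannot be told apart here. Of 59 members well above background on both arrays, 21 were at least 2-fold lower at passage 25, where 6.08% of all genes were, and 1 was at least 2-fold higher, where 3.75% were. The median difference, passage 25 minus passage 20, was -0.52 over these 59 members and -0.14 over all genes above background on both. Col3a1 was 14.2-fold lower at passage 25, Lum 12.6-fold, Col6a3 10.8-fold and Col1a1 9.1-fold. In the other direction Col8a2 was 3.96-fold higher, followed by Timp3 (0.95 log2 units higher) and Timp4 (0.85). Col17a1 read 2.52 log2 units higher at passage 25 but was not above background at passage 20.

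Across mES lines the difference was of the same kind. On ESF175/1 the members lay a median of -1.28 log2 units from the mean of the other two mES lines, while all genes lay at 0.05, and 37 of the 61 members were at least 2-fold lower, where 4.54% of all genes were. At least 2-fold lower in both contrasts, which share no array, were 22 of the 61 members, against 1.01% of all genes. Over the 61 members the contrasts correlated with a Pearson r of 0.65, and over all 20674 genes with both values with -0.03. This is a correlation across genes of 5 arrays, and genes are not independent replicates.

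**Figure D4:**
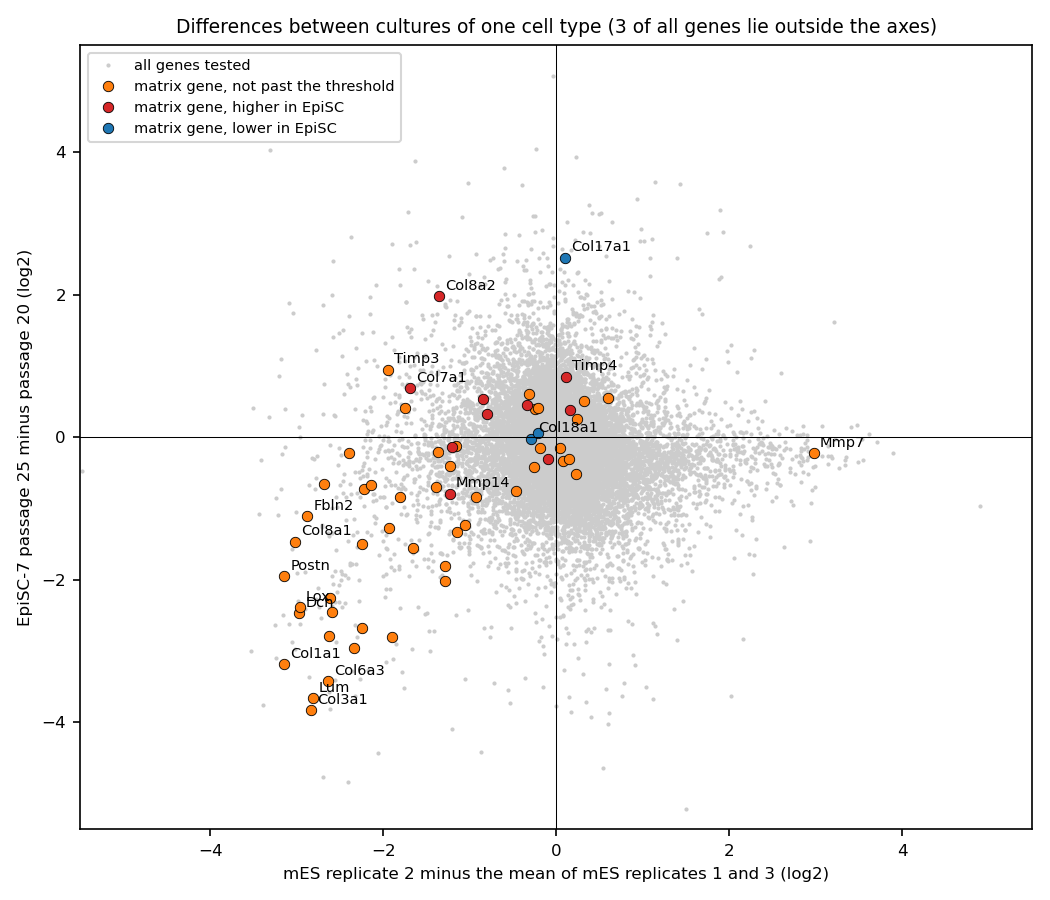
Each point is a gene, with the difference of mES replicate 2 from the mean of the other mES arrays on the horizontal axis and EpiSC-7 passage 25 minus passage 20 on the vertical axis, both in log2 units. All genes tested are grey, and the matrix genes are coloured by their call between cell types; 3 genes lie outside the axes. Col1a1, Col3a1, Lum and Col6a3 lie at the lower left, while Col18a1, Timp4 and Col8a2 do not.

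Genes of other fibroblast functions, from a list of 34 that the naming rule left out, were in part low on the same arrays. Of 32 tested, 19 were lowest on both low arrays, where 11.2% of all genes were. Their median deviations from the 6-array mean were 0.24, -1.48 and 0.92 in mES and 0.94, 0.32 and -0.41 in EpiSC. Thy1, a fibroblast surface antigen, read 1.07, -0.08 and 1.95 in mES and 1.15, 0.87 and -1.51 in EpiSC. The mesenchymal transcription factor Prrx1 read -0.79, -2.98 and -0.22 in mES and -0.43, -1.26 and -3.65 in EpiSC. Thy1, Prrx1, Thbs1 and Pdgfrb are named after their values were seen. In contrast the matricellular gene Thbs1 read -1.54, -3.59 and 0.72 in mES and 0.64, -0.49 and 0.60 in EpiSC, and Pdgfrb, a growth factor receptor of mesenchymal cells, read 0.48, -0.23 and 0.14 in EpiSC, so both were higher at passage 25 than at passage 20. The list's summed scaled signal was 140.4, 101.1 and 206.6 in mES and 203.6, 128.1 and 146.9 in EpiSC, lowest in EpiSC at passage 20 and not at passage 25. Such a sum weighs the brightest probes most. At passage 25 these were Tagln (5.27), Ccn2 (4.54) and Ccn1 (4.12), which all passed as higher in EpiSC, so the sum says little of the dimmer genes. The part of fibroblast RNA in the matrix results was not tested.

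Between cell types 5 of the 32 tested genes of that list rose and 2 fell, where 11.8% of all genes rose and 14.5% fell. Those that rose were Cnn1 (3.33 ± 0.61), Ccn1 (2.86 ± 0.50), Tagln (1.70 ± 0.33), Ccn2 (1.47 ± 0.34) and Acta2 (0.90 ± 0.21), with limma adjusted p from 0.00964 to 0.0248. Acta2, Tagln and Cnn1 encode contractile proteins, and Ccn1 and Ccn2 secreted matricellular proteins. Fibronectin (Fn1) fell by 1.66 with a standard error of 0.33 (limma adjusted p = 0.0142), and Angptl4, a secreted regulator of lipoprotein lipase, by 1.82 with a standard error of 0.52 (limma adjusted p = 0.0451). Fn1 read 3.07, 3.07 and 3.94 in mES and 2.17, 1.42 and 1.51 in EpiSC, and so was not low on the low arrays. Cnn1, Ccn1 and Tagln passed in all 6 fits that left out 1 array, Fn1 in 5, Ccn2 and Acta2 in 2 and Angptl4 in 1.

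Most of the machinery that makes collagen did not follow the collagens. Of 24 genes for synthesis, folding and processing 22 were tested, 3 rose and 3 fell, a share near the 26.3% of all genes. On both low arrays 2 were lowest, P3h3 and Adamts2, a share near the 11.2% of all genes. Serpinh1, the collagen chaperone HSP47, read 4.02, 3.43 and 4.12 in mES and 6.36, 6.19 and 6.19 in EpiSC, and rose by 2.39 ± 0.22, or 5.24-fold (limma adjusted p = 0.00137). Tll1, a procollagen C-proteinase, was not well above background on any mES array and was at least 2.63-fold higher in EpiSC (limma adjusted p = 0.0278). This bound compares the EpiSC mean with a floor, which on each mES array is the probe's value or the dimmest value still well above background, whichever is higher. P3h2, a prolyl 3-hydroxylase well above background on 1 of 3 mES arrays, had a fitted rise of 1.66 ± 0.48 (limma adjusted p = 0.0462). Pcolce2 fell by 1.91 with a standard error of 0.27 (limma adjusted p = 0.00483) and Pcolce by 1.56 with 0.35 (limma adjusted p = 0.0212); both enhance C-propeptide removal. Crtap, a partner of prolyl 3-hydroxylase 1, fell by 1.21 with a standard error of 0.24 (limma adjusted p = 0.0147). Serpinh1 and Pcolce2 passed in all 6 fits that left out 1 array, Crtap in 5, and Tll1, P3h2 and Pcolce in 2.

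Among collagen receptors and uptake genes, 4 of 9 tested rose and none fell, where 11.8% of all genes rose and 14.5% fell. Lair1, an inhibitory collagen receptor, rose by 2.82 ± 0.31 (limma adjusted p = 0.00241), and Ddr1, the epithelial discoidin domain receptor, by 1.92 ± 0.37 (limma adjusted p = 0.0139). Mrc2, which takes up collagen fragments, rose by 1.67 ± 0.42 (limma adjusted p = 0.0304), and integrin beta 1 (Itgb1) by 1.08 ± 0.23 (limma adjusted p = 0.0194). Lair1 and Ddr1 passed in all 6 fits that left out 1 array, and Mrc2 and Itgb1 in 2. Ddr2, the discoidin domain receptor of mesenchymal cells, read -2.06, -3.45 and -0.92 in mES and -1.04, -2.19 and -4.11 in EpiSC. It was low on both low arrays and not past the threshold. It too is named after its values were seen.

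Markers of the other cell types gave varied results, with limma adjusted p from 0.000522 (Apoe) to 0.0489 (Col4a1) for those named here as changed. For comparison with the counts of each list, 11.8% of all genes rose and 14.5% fell. Of 8 pluripotent cell markers none passed between cell types, their summed signal ran from 87.5 to 96.7 in mES and from 62.5 to 78.0 in EpiSC, and none was lowest on both low arrays. Of 19 tested endoderm genes, 6 rose, among them Foxa2 (8.02 ± 0.69), Sox17 (4.16 ± 0.65), Gata6 (3.57 ± 0.75) and Col4a1 (1.79 ± 0.53), and Apoe fell by 2.94 with a standard error of 0.21. The endoderm sum was 75.4 to 101.3 in mES and 55.9 to 109.6 in EpiSC, and Afp and Ttr were not above background on all arrays of either cell type. Of 9 mesoderm and streak genes T (4.01 ± 0.49), Eomes (4.18 ± 0.49) and Mixl1 (at least 5.38-fold) rose, and Foxf1 fell by 0.74. Their sums ran from 0.79 to 0.92 in mES and from 4.61 to 8.58 in EpiSC.

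Of 7 trophoblast genes Krt18 (4.21 ± 0.72) and Krt7 (2.74 ± 0.62) rose and Tfap2c fell by 2.48, with sums of 8.09 to 8.65 in mES and 14.2 to 87.9 in EpiSC. Of 4 tested endothelial genes Pecam1, well above background on 1 of 3 EpiSC arrays, fell by 5.14 in the fit, and Vwf fell by 2.48, with sums of 2.49 to 3.63 in mES and 0.25 to 1.43 in EpiSC. Of 5 cartilage genes Sox9, well above background on 1 of 3 mES arrays, had a fitted rise of 3.61 ± 0.27, and Acan fell by 0.83, with sums of 0.42 to 0.53 and of 0.67 to 0.74. Of 5 macrophage genes Cd68 fell by 2.95, and 4 were lowest on both low arrays, where 11.2% of all genes were. The macrophage sums were 1.21 to 4.51 in mES and 0.57 to 3.19 in EpiSC. Ptprc, the pan-leukocyte marker, was not above background on all arrays of either cell type. With 1 array left out at a time Gata6 passed in 3 of 6 fits, Acan in 2, Col4a1 and Krt7 in 1 and Foxf1 in none, and the others named passed in all 6. The part of these cell types in the matrix results was not tested.

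**Figure D5:**
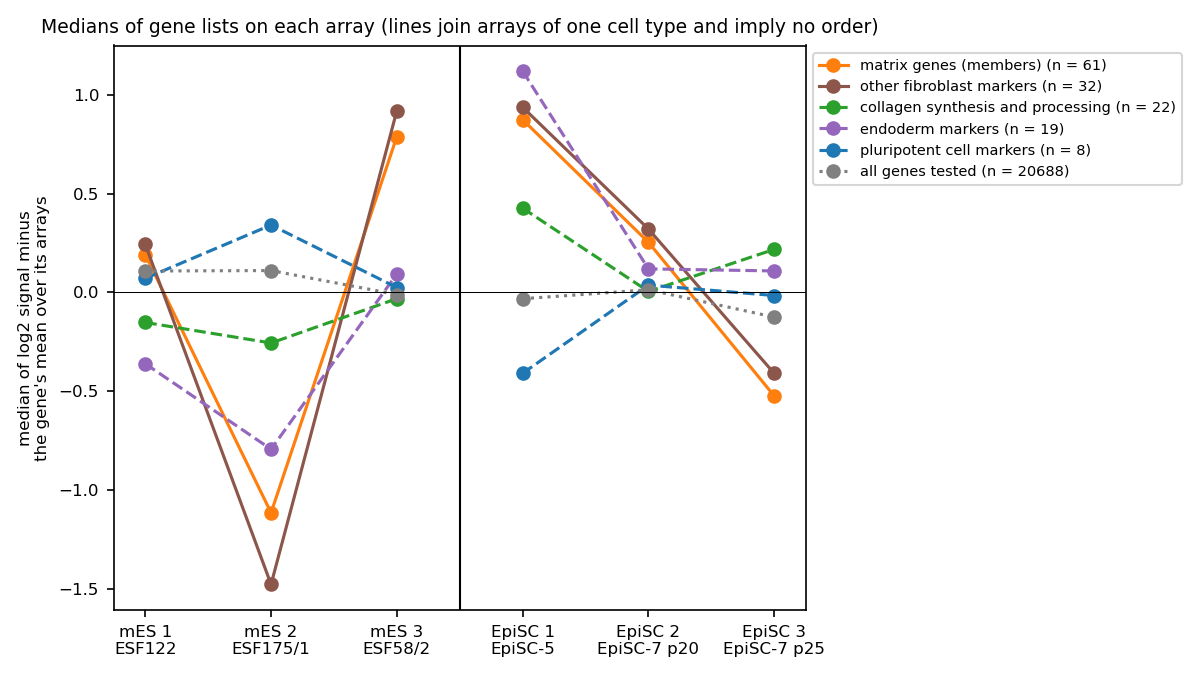
Median, over the genes of each list, of the log2 scaled signal minus the gene's mean over its arrays, for 6 arrays. Matrix genes (-1.12) and other fibroblast markers (-1.48) have their lowest medians on mES replicate 2 and lie below 0 on EpiSC replicate 3 (-0.53 and -0.41), whereas pluripotent cell markers lie at 0.34 and -0.02 on these arrays.

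Likeness to the members was taken on each array's deviation from the mean of its own cell type, so differences between cell types did not count. The genes outside the rule most like the members' median of these deviations were, by Pearson r, P3h3 (0.997), Ednra, Islr, Ptgs2, Ccdc80, S100a6, Smoc2, Ifi205, Cspg4 and C030044C12Rik (0.992). They were drawn from 5104 genes with a pooled SD within cell types of at least 0.5, of which 309 (6.05%) reached 0.9. P3h3, a prolyl 3-hydroxylase, read -0.30, -1.48 and 0.30 in mES and 0.10, -0.48 and -1.05 in EpiSC. None of the 10 passed between cell types. Among 60 members 24 reached 0.9 with the same pattern, which they helped to make, led by Col8a1 (0.994), Fbn1 (0.992) and Mmp2 and Loxl1 (0.990), and none of the 24 had passed between cell types. A wide spread within a cell type makes passing less likely, so the lack of calls among these 10 and 24 genes is no separate result. Loxl4 (-0.962), Mmp7 (-0.831) and Col9a1 (-0.786) had the lowest values.

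The comparison between cell types was repeated without the 2 low arrays, which left 2 cultures of each type. Then 5 members passed, Col8a2, Mmp14, Mmp16 and Timp4 higher and Col18a1 lower, where 7.3% of all genes did. Their log2 differences were 2.99 ± 0.54, 1.84 ± 0.34, 2.54 ± 0.46, 1.61 ± 0.23 and -1.78 ± 0.29 in that order, with limma adjusted p from 0.0292 to 0.0473. The other 8 genes had the same sign and did not pass, with limma adjusted p from 0.0558 (Fbn2) to 0.206 (Mmp9). With 1 array left out at a time, 8 of the 13 genes passed in all 6 fits: Col8a2, Mmp14, Mmp15, Mmp16, Timp4, Fbn2, Col18a1 and Mmp11. With another background correction (normexp) the log2 differences of Mmp16, Col23a1 and Col17a1 came to 1.02, 1.32 and -1.24, and all 3 still passed.

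The low arrays lay at different positions on their slides. Every slide held 1 cell type only, so slide and cell type cannot be told apart, while positions 1 and 4 held both. Over the arrays at position 4 (mES replicates 1 and 2, EpiSC replicates 1 and 2) the members' median difference between cell types was 1.23, and 8 members passed, a share of those tested near the 12.5% of all genes; Col17a1, Col23a1, Col9a3, Mmp15 and Mmp16 did not. Over the single array of each type at position 1 it was -1.38. The sign of the median difference was thus opposite at the 2 positions, each of which holds 1 of the low arrays. Both cell types were spread alike over the positions. Position as a block therefore cannot change the difference of a gene without missing values, and its median of 0.10 is no check.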

How the data were processed

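Total RNA of 6 cultures was extracted with TRIzol, per the labels' protocols, and scanned on 1-colour arrays. The deposited scanner files hold a linear intensity per spot, made by Agilent Feature Extraction 9.1.3.1, per the file headers, with detrending and background adjustment within each array and no scaling between arrays. The series' value table holds the same deposited intensity: it differed from the processed signal by at most 0.00716 log2 units, so it is linear and uncentred. Its column medians were 78.9, 84.9 and 68.7 for mES and 117.0, 80.25 and 82.95 for EpiSC replicates 1 to 3. For the probes no genome build is named in these sources.

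Control spots and outlier spots (12 to 24 per array) were left out, and 0 spots were saturated. From 66.2% to 75.4% of probes per array were well above background, and the number of arrays limits the precision. The log2 processed signal was scaled by each array's 75th percentile. Of 41174 probes 22951 (55.7%) were named through RefSeq accessions (GRCm38.p6), the others as in the files; 96 of the 121 member probes were named so, and 0 of them changed name. A probe entered if all arrays of 1 cell type or more showed it well above background, and a gene was its entering probe with the highest mean. Of 22 members with several tested probes, 0 had probes past the threshold in opposite directions and 5 had some past it and some not (Col23a1, Col27a1, Col2a1, Loxl4 and Mmp9).

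The test between cell types used limma 3.58.1 (R 4.3.3; lmFit, eBayes, two-sided), with Benjamini-Hochberg adjustment over all 20688 genes and a threshold of 0.05. The residual degrees of freedom were 4, the prior 2.47 and the median standard error 0.241. All adjusted p-values are limma's and the model was tested on simulated data. Those data had independent noise for each gene and array, so they could not check p-values where many genes shift together on an array. No set test was run. Alternatives changed the background correction, scaling, filter, probe rule, variance model, slide, position and arrays used.

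The members and all lists were chosen with earlier results of these data known. Named with values are a fixed set of main members, every member that passed, the 5 with the widest range within a cell type, the 3 that differed most between passages in each direction, up to 4 genes per direction of each list (8 for fibroblasts) and the 10 most like the members' pattern. A few others, Col8a1, Col9a1, Col9a2, Col27a1, Mmp3, Mmp7, Mmp17, Mmp24, Mmp25 and Adamts2 among them, were named after their values were seen.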

Additional observations from a re-analysis of the deposited data

How the results depend on the processing

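Against 13 members past the threshold (10 higher, 3 lower) and 5436 of all genes, counts moved over 1.5 times in these settings. With no filter on dim probes 8712 genes and 5 lower members passed. With slide as a random block, whose estimated correlation was -0.68, 11789 genes, 27 members and 12 lower members passed. In that fit the median standard error was 0.144, beside 0.241 in the main fit, and every slide held 1 cell type only. Over position 4 only, with fewer arrays, 2686 genes, 8 members and 6 higher members passed. Without both low arrays, an alternative chosen after seeing the data, 1548 genes and 5 members (4 higher, 1 lower) passed. Leaving out 1 array at a time gave 2943 (without EpiSC replicate 3) to 4955 genes, with 3458 without mES replicate 2 and 3281 without EpiSC replicate 1, and 9 to 12 members (7 to 10 higher, 2 to 3 lower). Fewer arrays are tested in each of these; the causes of the other changes were not tested. With the EpiSC-7 arrays averaged into 1 sample, Col7a1 and Mmp9 did not pass. With median scaling 3 members, in place of 1, were at least 2-fold higher at passage 25.

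No member past the threshold changed sign in any setting; 32 members that did not pass did in at least 1. Of all members that did not pass, 7 passed in at least 1 setting other than the slide block (Col27a1, Col2a1, Col9a2, Loxl4, Mmp25, Mmp7 and Timp3). The members' median difference ran from -0.35 (without mES replicate 2) to 1.23 (position 4 only). The count of members lowest on both low arrays was 33 or 34 under the 3 other scalings or backgrounds tried. No paired analysis was possible because the labels give no replicate numbers, and those used here only name arrays. No outlier rule was applied, since groups hold 3 arrays. Probes not well above background limit 12 members.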

Other observations

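Basement membrane collagen IV, which the naming rule leaves out, differed between cell types in part. Col4a5 read -5.55, -5.19 and -5.57 in mES, where 1 array was well above background, and -4.11, -3.51 and -3.97 in EpiSC, and rose by 1.58 ± 0.22 (limma adjusted p = 0.00507), with the call kept in all 6 fits that left out 1 array. Col4a1 read -1.45, -1.88 and 0.00 in mES and 1.27, 0.27 and 0.49 in EpiSC, and rose by 1.79 ± 0.53 (limma adjusted p = 0.0489), a call kept in 1 of those 6 fits. Its partner chain Col4a2 overlapped between cell types and did not pass (1.14 ± 0.65, limma adjusted p = 0.231). Col4a4 and Col4a6 did not pass, with differences of 0.13 ± 0.16 and -0.05 ± 0.18, and Col4a3 had no array well above background. None of the tested collagen IV chains was lowest on both mES replicate 2 and EpiSC-7 at passage 25.

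Probes that the files list under older names stand for 3 more genes of these families, Col6a6, Col26a1 and Fbln7. Fbln7, a fibulin, read -2.07, -2.05 and -2.55 in mES and -2.82, -3.25 and -2.93 in EpiSC, and fell by 0.78 with a standard error of 0.22 (limma adjusted p = 0.0422), a call kept in 1 of the 6 fits that left out 1 array. Col26a1 had a difference of 1.70 ± 0.58 that did not pass (limma adjusted p = 0.0729). Col6a6 was well above background on 1 mES array and was not tested.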
